A study of Mus musculus with 4 samples.

Results

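The genes described here are 9 effectors of the acute-phase and macrophage activation responses, measured in mouse hearts taken 1 week after aortic constriction of the transverse arch (TAC, an operation that narrows the aorta and makes the left ventricle pump against raised pressure). They were found by name: each of Saa3, Lcn2, S100a8, S100a9, Arg1, Nos2, Chil3, Retnla and Lgals3 was the only symbol of 1 probe set, which gave 9 of the 19938 genes with a named probe set. The set was assembled because Saa3 and Arg1 were known to be lower in the knockout hearts of these same data. Every knockout against wild type value of a member is therefore a description, and no p-value of a member is printed. Counts of members past a threshold are given below only as descriptions.

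The data comprised 4 Affymetrix Mouse Gene ST arrays, 3 from hearts of MAFbx KO mice after TAC and 1 from a heart of a wildtype mouse after TAC. MAFbx (atrogin-1, encoded by Fbxo32) is the substrate-binding subunit of a muscle ubiquitin ligase, and the comparison asks what its absence changes in the pressure-loaded heart. The constriction is common to all 4 hearts, so the differences below are between genotypes under load. The deletion design, strain, age and sex of the mice are not stated in the labels, which also do not say whether the numbered hearts are separate animals, so p-values measure only the spread between these samples. Unoperated hearts were not analysed here.

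Serum amyloid A and lipocalin 2 are secreted proteins that rise sharply in infection and injury under interleukin 6, interleukin 1 and NF-kB signalling, and injured tissue makes them locally as well as the liver. S100A8 and S100A9 pair as calprotectin, an abundant alarmin of neutrophils and monocytes. Arginase 1 and inducible nitric oxide synthase compete for arginine and, with the chitinase-like and resistin-like proteins, are classic readouts of macrophage activation state in the mouse. Galectin 3 is a sugar-binding lectin of activated macrophages that is widely measured as a marker of heart failure and fibrosis.

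Values are the authors' RMA values on the log2 scale, on which a difference of -1 is a halving. Genes whose mean over the 4 arrays lay under 4.10, the 25th percentile of all probe sets, were treated as dim and left out of tests, which left 16708 genes. Array medians over these genes lay between 6.57 and 6.62. Of the 9 effectors 7 passed this filter. Chil3 and Retnla did not, and S100a8 passed narrowly with a mean of 4.17. Fbxo32 read 5.65, 5.61 and 5.56 on knockout arrays 1, 2 and 3 and 7.54 on the wild type array. Xist, the RNA of the inactive X chromosome, read 9.18 and 9.52 in knockouts 1 and 2 but 3.20 in knockout 3, and 4.13 in the wild type heart. Knockout 3 is thus the one knockout array that shares the low Xist level of the wild type array. Over the tested genes it also correlated more with the wild type array (Pearson r 0.986) than with knockouts 1 and 2 (0.978 and 0.982). Knockouts 1 and 2 correlated at 0.988 with each other. The part of this grouping in the genotype differences was not tested. The value of knockout 3 is given separately for each member, but for some other genes only the mean over the knockout arrays is given.

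As a check of the tissue label, the 15 cardiomyocyte markers read 9.44 to 13.91 on the knockout arrays and 9.20 to 14.02 on the wild type array. In bulk tissue such as this, fewer cells of a type and less RNA per cell cannot be told apart.

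RefSeq promoter sequence (GRCm38.p6) was matched for 7 of the 9 members. Those of Saa3, Lcn2, Chil3, S100a8 and Lgals3 are shown because these genes were lower on every knockout array, and that of S100a9 because it was not. Each line gives the 250 bases before the transcript start used by that table, 5′ to 3′ on the strand of the gene. Capitals mark matches, on either strand, to TTNNGCAA (C/EBP, factors of the acute-phase response), TTCNNNGAA (STAT) and TGANTCA (AP-1), or to the NF-kB consensus.
Saa3, chr7:46715677-46715926, minus strand: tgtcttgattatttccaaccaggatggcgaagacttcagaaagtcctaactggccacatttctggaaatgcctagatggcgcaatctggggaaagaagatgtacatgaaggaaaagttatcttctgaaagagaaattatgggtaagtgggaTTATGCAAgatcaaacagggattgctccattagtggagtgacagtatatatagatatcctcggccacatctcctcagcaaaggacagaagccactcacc
Lcn2, chr2:32387740-32387989, minus strand: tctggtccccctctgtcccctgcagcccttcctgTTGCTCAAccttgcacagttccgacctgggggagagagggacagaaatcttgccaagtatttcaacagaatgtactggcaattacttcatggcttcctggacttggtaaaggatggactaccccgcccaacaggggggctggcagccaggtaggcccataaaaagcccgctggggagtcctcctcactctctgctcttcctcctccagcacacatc
Chil3, chr3:106167565-106167814, minus strand: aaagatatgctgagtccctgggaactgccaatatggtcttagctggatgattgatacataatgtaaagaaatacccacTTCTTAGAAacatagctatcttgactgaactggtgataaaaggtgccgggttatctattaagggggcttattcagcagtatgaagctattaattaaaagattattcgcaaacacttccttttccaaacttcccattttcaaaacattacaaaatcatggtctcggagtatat
S100a8, chr3:90668821-90669070, plus strand: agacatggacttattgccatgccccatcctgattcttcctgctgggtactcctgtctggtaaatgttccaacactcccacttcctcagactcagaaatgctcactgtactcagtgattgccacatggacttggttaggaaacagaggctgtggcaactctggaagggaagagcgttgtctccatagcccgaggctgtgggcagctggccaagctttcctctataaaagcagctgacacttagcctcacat
Lgals3, chr14:47373610-47373859, plus strand: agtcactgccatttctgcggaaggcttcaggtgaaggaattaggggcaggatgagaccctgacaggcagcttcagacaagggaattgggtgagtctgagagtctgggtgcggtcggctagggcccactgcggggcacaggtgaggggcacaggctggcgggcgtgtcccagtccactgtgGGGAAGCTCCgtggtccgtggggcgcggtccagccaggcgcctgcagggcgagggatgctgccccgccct
S100a9, chr3:90695722-90695971, minus strand: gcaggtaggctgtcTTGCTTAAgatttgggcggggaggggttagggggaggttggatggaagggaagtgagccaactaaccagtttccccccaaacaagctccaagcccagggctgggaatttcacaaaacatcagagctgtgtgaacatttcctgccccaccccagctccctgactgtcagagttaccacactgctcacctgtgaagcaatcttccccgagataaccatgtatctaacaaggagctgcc

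The match in Saa3 is a C/EBP one, TTATGCAA, 99 to 92 bases before the start used here. RefSeq also holds a longer Saa3 model whose span includes this window. Lcn2 and S100a9 also held one C/EBP match each, farther upstream. Chil3 held a STAT match and S100a8 held none of the motifs. Lgals3 held the NF-kB consensus as GGGAAGCTCC, 70 to 61 bases before the start. Of 32536 promoter windows of the same length in the table, 9.57% held the C/EBP letters, 7.28% the NF-kB consensus, 7.04% the STAT letters and 6.73% the AP-1 letters. The C/EBP letters were thus present upstream of members that were lower (Saa3 and Lcn2) and of members whose genotypes overlapped (S100a9 and Retnla, which is not shown).

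Of the 9 members, 6 were lower on all 3 knockout arrays than on the wild type array, 0 were higher on all 3, and 3 (Nos2, Retnla and S100a9) overlapped the wild type value. Among all 19938 genes 23.8% were lower on all 3 knockout arrays without the filter, and 24.2% of the 16708 tested genes were. With limma, 0 of the 7 tested members passed an adjusted p of 0.05 and 4 (Saa3, Lcn2, Arg1 and Lgals3) had an unadjusted p under that value and were lower. Over all genes tested 0.00599% passed lower at the adjusted threshold, which is the single gene Hmox1, and 3.87% were lower and 1.72% higher at the unadjusted one. The members were chosen on this contrast, with Saa3 and Arg1 already known to be lower, so the member counts were partly fixed in advance. These counts only describe the members and are not read against those shares. The shares over all genes tested are the reference for the counts of the fixed lists below.

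**Figure D1:**
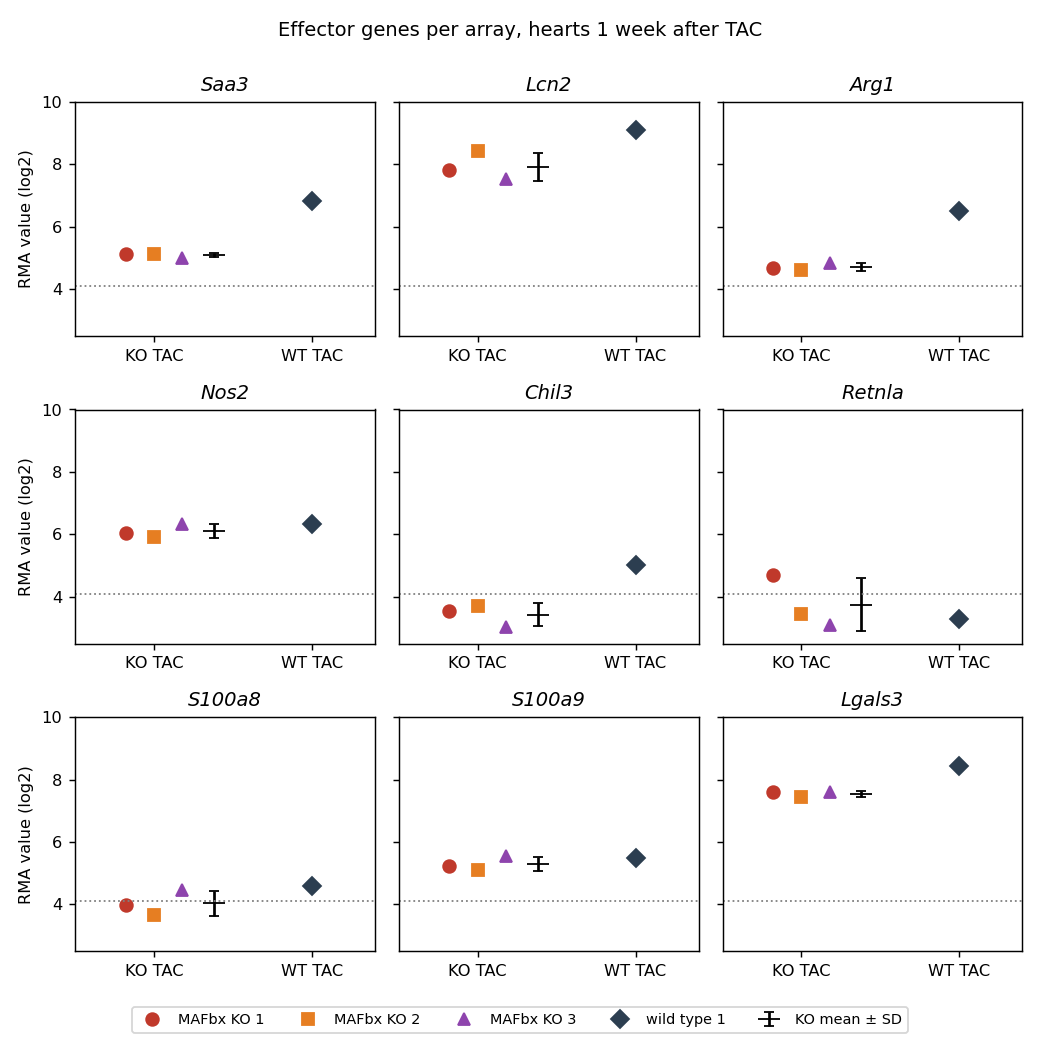
RMA values (log2) of the 9 effector genes on each array, knockout TAC hearts left and the wild type TAC heart right, with the knockout mean ± SD (n = 3) and the filter level as a dotted line. Saa3, Lcn2, Arg1, Chil3 and Lgals3 stand clear of the wild type point on all 3 knockout arrays, whereas Nos2 and S100a9 straddle it.

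Saa3, the serum amyloid A isoform made outside the liver by macrophages and fat cells, read 5.14, 5.11 and 5.01 in knockout hearts 1, 2 and 3, against 6.81 in the wild type heart. The knockout mean of 5.09 ± 0.07 (SD, n = 3) was 3.30-fold lower, a log2 difference of -1.72. The knockout hearts lay within 0.13 of each other, and the wild type heart stood 1.67 above the highest of them. By size of difference Saa3 ranked 21st from the lowest of the 16708 genes.

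The isoforms that the liver secretes were dim. Saa2 read 3.16, 2.69 and 2.87 in knockout hearts and 3.43 in the wild type heart, and Saa1 read 2.90, 2.88 and 2.43 in knockout hearts and 2.39 in the wild type heart. Both were under the filter level on every array, as was Saa4. Alb, the albumin gene of hepatocytes, lay between 4.04 and 4.17 on all 4 arrays. Not every liver marker was as low. Ahsg read 6.57, 7.34 and 5.70 in knockout hearts and 6.22 in the wild type heart. For Cyp2e1 the values were 6.47, 7.31 and 6.44 in knockout hearts and 6.45 in the wild type heart.

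Lcn2, lipocalin 2, binds bacterial siderophores and so withholds iron. It read 7.81, 8.41 and 7.54 in knockout hearts, against 9.11 in the wild type heart. The mean of 7.92 ± 0.45 (SD, n = 3) was 2.28-fold lower (log2 difference -1.19). The knockout hearts spread over 0.87, more than those of Saa3, and knockout 2 came nearest to the wild type level.

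S100a8 read 3.98, 3.67 and 4.46 in knockout hearts, against 4.58 in the wild type heart, a log2 difference of -0.54. Knockout 3 lay only 0.12 below the wild type heart, and knockouts 1 and 2 were under the filter level. S100a9, its neighbour on chromosome 3 with 0 protein-coding genes between them, read 5.23, 5.11 and 5.56 in knockout hearts, against 5.50 in the wild type heart. Here knockout 3 was above the wild type heart, so the genotypes overlapped. The order of the knockout arrays was the same for both calprotectin subunits, with knockout 3 highest and knockout 2 lowest.

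Of 24 measured neutrophil markers, 8 were left out as dim and 16 were tested. Ngp, Ltf, Mmp8 and Stfa3 were under the filter level on all 4 arrays, and Ly6g read 3.70, 3.95 and 4.20 in knockout hearts and 3.93 in the wild type heart. Clec4e read 3.12, 2.63 and 3.21 in knockout hearts and 4.32 in the wild type heart (-1.33). Only its wild type value was above the filter level, as for Cxcr2 (-0.45) and Trem1 (-0.44). Mpo, the peroxidase of neutrophil granules, read 4.85, 4.97 and 4.93 in knockout hearts and 4.89 in the wild type heart. The mean level of the 16 neutrophil markers tested was 4.94 to 5.01 on the knockout arrays and 5.18 on the wild type array, and 8 of the 16 were lower and 0 higher on all 3 knockout arrays. Their median difference was -0.11 (-0.06 without knockout 2). None (0) passed limma's adjusted threshold, and 3, Csf3r, Mmp9 and Trem3, were lower at an unadjusted p of 0.05. Over all genes tested 3.87% were lower at that unadjusted p. Trem3 passed the filter narrowly, with a 4-array mean of 4.11 and a knockout mean of 3.93. It read 3.85, 4.21 and 3.72 in knockout hearts and 4.67 in the wild type heart, so knockouts 1 and 3 were dim. Csf3r, the receptor of granulocyte colony-stimulating factor, read 4.84, 4.58 and 5.25 in knockout hearts and 5.57 in the wild type heart, while Hdc read 6.03, 6.10 and 6.33 in knockout hearts and 6.06 in the wild type heart. The part of neutrophil number in the S100a8 and S100a9 values was not tested.

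Arg1, arginase 1, which turns arginine into ornithine and urea, had the largest difference of the 9. It read 4.67, 4.61 and 4.85 in knockout hearts, against 6.51 in the wild type heart. The mean of 4.71 ± 0.12 (SD, n = 3) was 3.48-fold lower (log2 difference -1.80), and the wild type heart stood 1.66 above the highest knockout heart. Arg1 ranked 16th from the lowest of the genes tested.

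Nos2, inducible nitric oxide synthase, uses the same substrate and showed no such separation. It read 6.06, 5.90 and 6.34 in knockout hearts, against 6.32 in the wild type heart, a log2 difference of -0.22 with a knockout SD of 0.22. Knockout 3 matched the wild type heart to within 0.02.

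Chil3 (Ym1), a chitinase-like protein of alternatively activated mouse macrophages, read 3.55, 3.72 and 3.03 in knockout hearts, against 5.02 in the wild type heart. Only the wild type value was above the filter level, so the log2 difference of -1.59 sets a measured value against dim ones. Chil4, its closest relative and direct neighbour on chromosome 3, read 2.95, 3.0 and 3.13 in knockout hearts and 3.26 in the wild type heart. Whether the Chil3 probes also detect Chil4 was not tested.

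Retnla (Fizz1), a resistin-like protein, is induced with Chil3 by interleukin 4. It read 4.70 in knockout 1, 3.46 in knockout 2 and 3.10 in knockout 3, against 3.30 in the wild type heart. Knockout 1 alone was above the filter level, and it sets the positive mean difference of 0.45 (knockout SD 0.84). Knockouts 2 and 3 lay within 0.20 of the wild type heart.

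Lgals3, galectin 3, read 7.59, 7.44 and 7.61 in knockout hearts, against 8.43 in the wild type heart. The mean of 7.55 ± 0.09 (SD, n = 3) was 1.85-fold lower (log2 difference -0.88). The knockout hearts agreed within 0.17, and the gap to the wild type heart was 0.82.

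The order of the knockout arrays differed between members. For Saa3, Arg1 and Lgals3 the knockout hearts lay close together, with differences from the wild type heart of -1.67, -1.70 and -1.80 for Saa3, -1.84, -1.90 and -1.66 for Arg1, and -0.84, -0.99 and -0.82 for Lgals3 in knockouts 1, 2 and 3. Lcn2 and Chil3 had their largest difference in knockout 3, at -1.57 and -1.99. S100a8, S100a9 and Nos2 instead had their smallest difference there, at -0.12, 0.06 and 0.02.

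**Figure D2:**
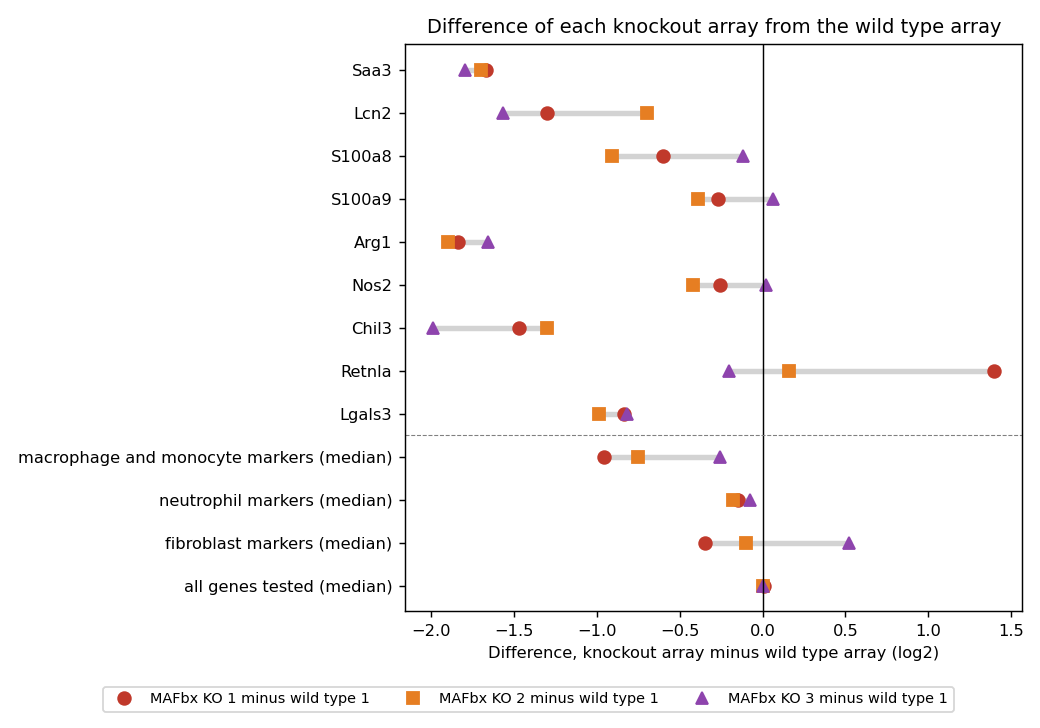
Difference (log2) of each knockout array from the wild type array for the 9 effectors and, below the dashed line, the median over marker lists and over all genes tested. Knockout 3 (triangles) lies with the other knockouts for Saa3, Arg1 and Lgals3, and nearer to 0 for S100a8, at -0.12, and for the median of the macrophage markers, at -0.26.

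Macrophage and monocyte markers were also lower in the knockout hearts, but unevenly. Of 28 measured and 27 tested, 19 were lower on all 3 knockout arrays and 1 was higher, against 24.2% in each direction over all genes tested. With limma 0 passed the adjusted threshold and 11 were lower at an unadjusted p of 0.05. Over all genes tested 3.87% were lower at that unadjusted p. The mean level of the macrophage and monocyte markers was 7.23, 7.32 and 7.71 in knockouts 1, 2 and 3 and 8.08 in the wild type heart. Their median difference was -0.96, -0.75 and -0.26 in knockouts 1, 2 and 3. Ccr2, the receptor that recruits blood monocytes, read 4.74, 5.21 and 6.16 in knockout hearts and 7.39 in the wild type heart. Csf1r, the growth factor receptor shared by most macrophages, read 8.18, 8.03 and 8.51 in knockout hearts and 8.61 in the wild type heart. Cd68 read 8.01, 8.18 and 8.58 in knockout hearts and 9.56 in the wild type heart, while Adgre1, which encodes a macrophage surface receptor, read 6.87, 7.07 and 7.67 in knockout hearts and 7.93 in the wild type heart. Other markers did not go that way. Timd4, a marker of resident macrophages, was higher on all 3 knockout arrays (0.11), and Cd163 (0.04), Lyve1 (0.02), Cd14 (0.04) and Folr2 (-0.08) overlapped. In knockout 3 alone the markers ranged widely around their median of -0.26. The lowest were Itgam at -1.26, Ccr2 at -1.23, Mrc1 at -1.01, Cd68 at -0.98 and Fcgr1 at -0.97. The highest were Ms4a7 at 0.49 and Cd14 at 0.28, while Csf1r was at -0.10 and C1qa at -0.03. In that array Saa3 was at -1.80, Arg1 at -1.66, Lgals3 at -0.82 and S100a8 at -0.12. The part of macrophage number in the members' values was not tested.

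Other acute-phase proteins were mixed. Of 26 listed, 23 were measured and 16 tested. On all 3 knockout arrays 8 were lower and 5 higher, against 24.2% in each direction over all genes tested. The median difference was -0.09 (0.01 with the dim genes included and -0.05 without knockout 3) against 0.00 over all genes tested. With limma 0 passed the adjusted threshold, and 3 were lower and 0 higher at an unadjusted p of 0.05. Those 3 were Serpina3n, an injury-induced protease inhibitor, Ptx3, a pentraxin made by macrophages and endothelium, and Hp, haptoglobin. Over all genes tested 3.87% were lower and 1.72% higher at that unadjusted p. Serpina3n read 8.85, 9.0 and 9.72 in knockout hearts, against 10.65 in the wild type heart (log2 difference -1.46, SE 0.33, limma adjusted p = 0.470). Hp read 6.18, 6.91 and 6.40 in knockout hearts, against 7.32 in the wild type heart (-0.82, SE 0.28). Mt2, a metallothionein, differed by -0.47.

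The cytokines, receptors and factors that drive the acute-phase response leaned lower. Of 21 tested, 16 were lower and 0 higher on all 3 knockout arrays, against 24.2% in each direction over all genes tested. At an unadjusted limma p of 0.05, 3.87% of all genes tested were lower. The median difference of the 21 was -0.33 (-0.35, -0.47 and -0.17 in knockouts 1, 2 and 3). With limma 0 passed the adjusted threshold and 8 were lower at an unadjusted p of 0.05. Osmr, the receptor of oncostatin M, stood at 7.12, 7.54 and 7.56 in knockout hearts, against 8.51 in the wild type heart (-1.10, SE 0.23, limma adjusted p = 0.391). Bcl3, a nuclear IkB protein, differed by -0.93, Il17ra by -0.76, Socs3 by -0.72 and Il1b by -0.67. Il6 was dim, at 2.69, 2.78 and 2.75 in knockout hearts and 3.93 in the wild type heart. Stat3, the factor downstream of interleukin 6, read 9.75, 9.83 and 9.78 in knockout hearts and 10.26 in the wild type heart. Of the C/EBP factors, Cebpa read 6.78, 6.64 and 6.99 in knockout hearts, against 7.13 in the wild type heart (-0.33). Cebpb differed by 0.10 and Cebpd by 0.29, both with overlapping genotypes. The genotypes also overlapped for Nfkbiz (-0.33).

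Around arginine, 7 of 17 tested genes were lower and 2 higher on all 3 knockout arrays, against 24.2% in each direction over all genes tested. The median difference of the 17 was -0.08 (-0.22 without knockout 3 and -0.01 in knockout 3 alone). With limma 0 passed the adjusted threshold and 3 were lower at an unadjusted p of 0.05. These were Odc1, Srm and Azin1. Over all genes tested 3.87% were lower at that unadjusted p. Odc1, ornithine decarboxylase, read 9.52, 9.65 and 9.28 in knockout hearts, against 10.17 in the wild type heart (-0.69, SE 0.20). Srm, spermidine synthase, differed by -0.88 and Azin1, the antizyme inhibitor that protects ornithine decarboxylase, by -0.96 (SE 0.20, limma adjusted p = 0.391). Other polyamine genes of the list differed less: Sat1 by -0.25 and Oaz2 by 0.04, both with overlapping genotypes, and Smox by -0.16. Arg2, the mitochondrial arginase, read 4.02, 4.17 and 3.85 in knockout hearts and 4.14 in the wild type heart. The arginine transporter gene Slc7a2 differed by -0.03, with overlapping genotypes. Slc7a1, another arginine transporter, was at -0.40.

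The median difference was -0.15 over 21 tested genes of the alternative activation state and -0.14 over 21 of the classical state. The classical median was -0.25 without knockout 3 and -0.47 with a filter at the median of all probe sets, where the alternative median was -0.17 and -0.18. In knockout 3 alone it was -0.14 for alternative and -0.05 for classical genes. On all 3 knockout arrays 11 alternative genes were lower and 5 higher, and 10 classical genes were lower and 2 higher. The share over all genes tested was 24.2% in each direction. At an unadjusted limma p of 0.05, 3.87% of all genes tested were lower. With limma 0 of either list passed the adjusted threshold, and 7 alternative and 6 classical genes were lower at an unadjusted p of 0.05. Among alternative genes Myc differed by -0.997, Il4ra by -0.97 and Clec7a by -0.58. The mannose receptor gene Mrc1 read 7.64, 7.92 and 7.70 in knockout hearts, against 8.71 in the wild type heart (-0.96, SE 0.19), and Clec10a differed by -0.33. Among classical genes Ptgs2, inducible cyclooxygenase, read 6.42, 6.30 and 6.53 in knockout hearts, against 7.93 in the wild type heart (-1.51, SE 0.18, limma adjusted p = 0.105). Ncf4, a subunit of the phagocyte oxidase, differed by -0.75.

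**Figure D3:**
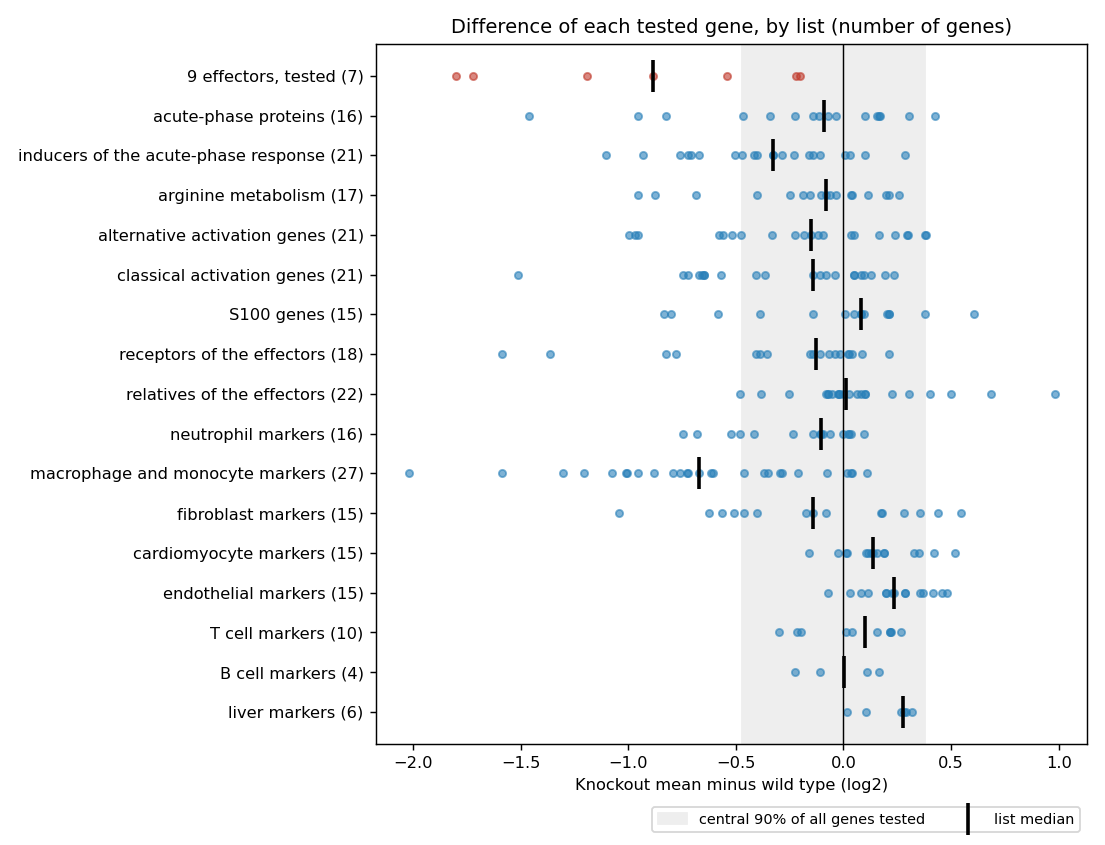
Difference (log2, knockout mean minus wild type) of each tested gene in the 9 effectors and in each list, with list medians as black bars and the range from the 5th to the 95th percentile of all genes tested shaded (-0.47 to 0.38). The band shows the spread of single genes, and medians vary less than single genes do. The macrophage and monocyte list has the lowest median of the fixed lists, at -0.67.

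Of 15 other S100 genes tested, 3 (20%) were lower and 6 higher on all 3 knockout arrays, against 24.2% in each direction over all genes tested. At an unadjusted limma p of 0.05, 3.87% of all genes tested were lower. The median difference of the 15 was 0.08 (-0.14 with a filter at the median of all probe sets). With limma 0 passed the adjusted threshold and 2, S100a4 and S100a6, were lower at an unadjusted p of 0.05. S100a4, a marker of motile fibroblasts and leukocytes, read 5.40, 5.39 and 5.85 in knockout hearts, against 6.38 in the wild type heart (-0.83, SE 0.23). S100a11 differed by -0.80 and S100a6 by -0.58 (each -0.27 in knockout 3), and S100a10 by -0.39 with overlapping genotypes. In each of the 4 genes, S100a4 included, knockout 3 was the highest knockout array, as for S100a8 and S100a9. S100a14 differed by 0.61.

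Among all genes tested 24.2% were lower and 24.2% higher on all 3 knockout arrays, and 3.87% were lower at an unadjusted limma p of 0.05. Of 18 tested receptors and co-receptors of the effectors, 8 were lower and 1 higher on all 3 knockout arrays (median -0.13, and -0.08 without knockout 1). With limma 0 passed the adjusted threshold, and 4 were lower at an unadjusted p of 0.05. Itgam and Itgb2, the 2 chains of the integrin Mac-1, differed by -1.59 and -1.36, Tlr1 by -0.83 and Myd88, the adaptor of Toll-like receptors, by -0.78. Itgam also counts among the macrophage markers. Tlr4 and Tlr2, receptors through which S100A8/A9 and serum amyloid A signal, differed by -0.04 and -0.11, with overlapping genotypes.

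Relatives of the effectors within the galectin, lipocalin, chitinase-like and resistin families did not share a direction. The share on all 3 knockout arrays over all genes tested was 24.2% lower and 24.2% higher. At an unadjusted limma p of 0.05 it was 3.87% lower and 1.72% higher. Of 22 tested, 2 were lower and 6 higher on all 3 knockout arrays, the median was 0.01, and with limma 0 had an adjusted or an unadjusted p under 0.05. Lgals1, galectin 1, read 11.28, 11.44 and 11.65 in knockout hearts, against 11.84 in the wild type heart (-0.38), and Lgals3bp differed by 0.22. Lgals4 read 7.49, 7.35 and 6.11 in knockout hearts and 6.0 in the wild type heart, so its difference of 0.98 lay in knockouts 1 and 2. Retn, resistin, differed by 0.50 (0.15 in knockout 3) and Apod by 0.69 (0.45 in knockout 3). Retnlg differed by 0.00 and Chil1 by -0.48, both with overlapping genotypes.

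Markers of cells other than macrophages and neutrophils were compared in the same way. The median difference was -0.14 for 15 fibroblast markers (-0.35, -0.10 and 0.52 in knockouts 1, 2 and 3), 0.14 for 15 cardiomyocyte markers, 0.23 for 15 endothelial markers, 0.10 for 10 T cell markers, 0.00 for 4 B cell markers and 0.28 for 6 liver markers. Leaving out 1 array moved several of these: the fibroblast median was 0.07 without knockout 1, -0.08 without knockout 2 and -0.23 without knockout 3, the T cell median 0.16 without knockout 2 and 0.02 without knockout 3, and the liver median 0.13 without knockout 2. The B cell median was -0.03, 0.12 and -0.07 without knockout 1, 2 and 3. With limma 0 of these passed the adjusted threshold, and 1 endothelial marker was higher at an unadjusted p of 0.05. Over all genes tested 1.72% were higher at that unadjusted p. The collagen gene Col1a1 read 10.10, 10.66 and 12.11 in knockout hearts and 11.58 in the wild type heart.

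**Figure D4:**
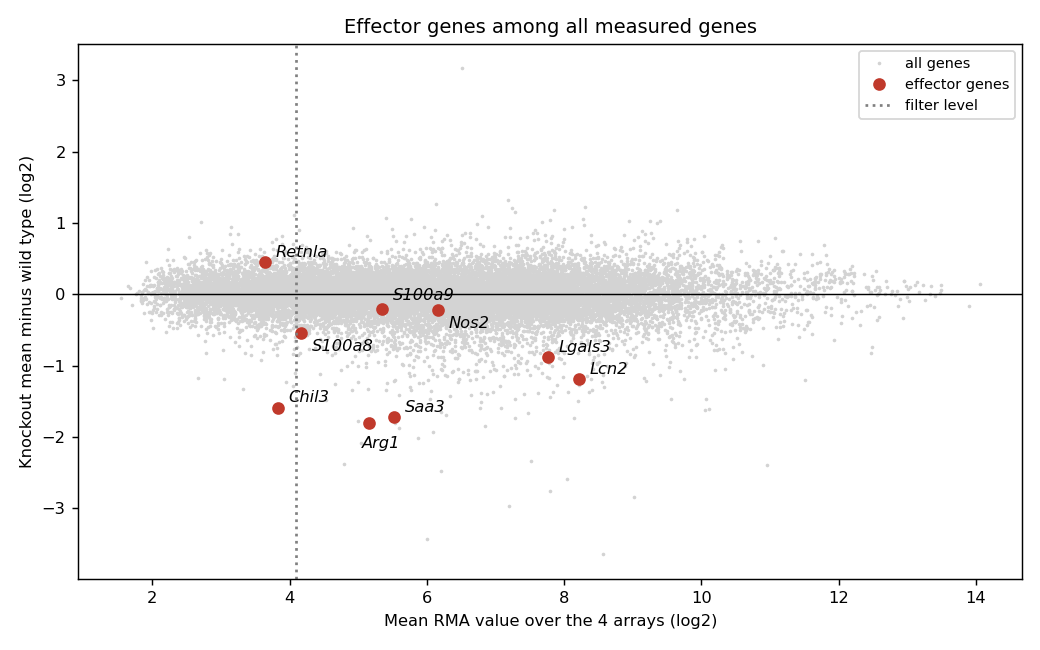
Difference (log2, knockout mean minus wild type) against the mean RMA value over the 4 arrays for all measured genes (grey) and the 9 effectors (red), with the filter level as a dotted line. Arg1, Saa3 and Chil3 lie at -1.80, -1.72 and -1.59, below the main cloud, while Nos2 and S100a9 lie within it.

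For each member the 3 tested genes with the most similar profile were found among 15497 genes, as the root mean square difference between profiles over the 4 arrays, each centred on its own mean. With 4 arrays such likeness is a description. The profile nearest to Saa3 was that of Fbxo32 itself (0.09), followed by the CC chemokine genes Ccl6 (0.10) and Ccl9 (0.14). Ccl6 read 7.84, 7.86 and 7.80 in knockout hearts, against 9.33 in the wild type heart. Nearest to Arg1 were Ccl9 (0.08), the myeloid lectin gene Clec4d (0.11) and Ptgs2 (0.13). Clec4d read 4.98, 5.20 and 5.22 in knockout hearts, against 7.0 in the wild type heart.

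Nearest to Chil3 were Mmp3, stromelysin 1, at 6.59, 6.58 and 5.94 in knockout hearts and 7.96 in the wild type heart (0.07), then Ifitm6 (0.10) and Ccl6 (0.24). For Lcn2 they were Klhl41 (0.16), Gadd45g (0.21) and Ctps (0.22), and for Lgals3 they were Ubash3b, Sqle and Slc9a7, at 0.03 to 0.04. Retnla lay nearest to Mir1839 (0.14), H2-T24 (0.16) and Mylk4 (0.18), which were also highest in knockout 1. For Nos2, S100a8 and S100a9 the nearest profiles lay at 0.05 or less: Zfp57, Sema3f and Cd79b for Nos2, Kif15, Pcdhb6 and Atp8b1 for S100a8, and Cercam, Pmel and Mir200c for S100a9.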

How the data were processed

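The deposited log2 values of 35556 probe sets on 4 arrays were made by the authors with Affymetrix Expression Console and RMA, per the submitters' processing notes. Neither versions nor a build are stated there. RMA equalises the arrays, so a shift common to most genes is lost, and it compresses differences of dim genes. By the platform annotation 21789 probe sets had 1 symbol, 1621 several and 12146 none listed, and the brightest probe set stood for a gene.

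The genotype contrast, knockout minus wild type, was fitted with lmFit and eBayes of limma 3.58.1 (R 4.3.3, two-sided) over 16708 genes, with Benjamini-Hochberg adjustment and a threshold of 0.05. Its spread comes from the knockout arrays (2 residual and 5.05 prior degrees of freedom), and the single wild type array is taken to vary as they do. With 3 arrays against 1, permutation reaches 0.25 at best. Precision is limited by the number of arrays. The fit was tested on simulated data, with noise drawn separately for each gene. At the adjusted threshold it recovered 1.6% of genes lowered 1.5-fold, 45.6% at 2-fold and 96.8% at 3-fold. It made 7.4 false calls per run. In the data Fbxo32, 3.82-fold lower, and Ccr2, 4.06-fold lower, did not pass, so the simulated recovery need not hold here. A count of 0 past that threshold therefore does not exclude differences of 2-fold or more, and says little about smaller ones. List genes without a probe set of their own symbol were not analysed here.

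Members, lists, tests and alternatives were chosen with earlier results of these data known. Genes are named by rule: the members, Fbxo32, Xist, the 4 largest differences of each list, a set of pathway genes and the 3 nearest profiles of each member, skipping predicted genes, RIKEN names, olfactory receptors and accessions. Named outside it, after values were seen, are Hmox1, Saa4, Alb, Chil4, Ngp, Ltf, Mmp8, Stfa3, Clec4e, Cxcr2, Trem1, Hdc, Cebpa, Sat1, Smox, Oaz2, Timd4, Cd163, Lyve1, Cd14, Folr2, Ms4a7 and C1qa.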

Additional observations from a re-analysis of the deposited data

How the results depend on the processing

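The number of genes past the threshold was 1 as reported. It was 0 without a filter, with quantile normalization repeated, with Xist as a covariate and (0 to 0) without any one knockout array, and 3 with a filter at the median. It was 7 with each array centred on its median, 7 with an intensity trend, 9 with robust eBayes and 9 at an adjusted p under 0.1. Of the members, chosen on this contrast and so only described by such counts, 0 were past the threshold as reported, and 2, Saa3 and Arg1, were past it with centring, with the trend, with robust eBayes and at an adjusted p under 0.1, while 4 had an unadjusted p under 0.05. The count of members lower on all knockout arrays was 5 of 7, became 2 of 3 with a filter at the median, and ran from 5 to 7 without 1 knockout array, where without knockout 3 it was 7. The median difference of the tested members, -0.88, ran from -0.92 to -0.83 without 1 knockout array, was -0.82 in knockout 3 against wild type 1 alone and with Xist as a covariate, and was -1.04 with a filter at the 25th percentile of probe sets with 1 symbol, which was chosen after seeing the data and leaves 6 members. The cause of these shifts was not tested, beyond the genes or arrays that a setting leaves out.

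Of 88 values of single members under the alternatives, 78 moved by less than the spread between knockout arrays and 4 changed sign, all of Nos2 and S100a9 with knockout 3 against wild type 1 or the covariate. Many of the 88 could not move. A filter, the trend and robust eBayes leave the difference of a single gene unchanged, and each member had 1 probe set to average. The covariate gives the same differences as knockout 3 against wild type 1, so its sign changes repeat those. Of 207 list medians 182 moved by less than that spread and 7 changed sign. The trend and robust eBayes could not move these either, so neither tally measures stability. No paired analysis was possible because the groups share only replicate number 1.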
